A study of Mus musculus with 10 samples.

Results

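Basement membrane collagen IV and its partners were followed in whole mouse hearts as 10 genes of the 56748 genes in the count tables. The set held the 6 collagen IV chains (Col4a1, Col4a2, Col4a3, Col4a4, Col4a5 and Col4a6), perlecan (Hspg2), both nidogens (Nid1 and Nid2) and the collagen-binding protein Sparc. These genes were chosen by name, with earlier results of the same training comparison known. Their training values are therefore a description and carry no test. All 10 were among the 15454 genes with enough reads to be tested.

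All mice were male wild-type C57BL/6, bought at an age of 8 weeks. The training group, labelled Exercise, was 5 mice that ran on a treadmill at 15 m/min for 120 min a day on 5 days a week over 8 weeks. The sedentary group, labelled Control, was 5 mice kept without training. RNA came from the entire heart, atria and ventricles together, and was sequenced as strand-specific libraries. The comparison asks how forced endurance training changes cardiac gene expression, here for the basement membrane.

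Basement membranes are thin sheets of matrix beneath the endothelium and around cardiomyocytes, pericytes and smooth muscle cells. Collagen IV chains wind into trimers that link up as the covalent scaffold of the sheet, beside a laminin network that cells hold through integrins and dystroglycan. Nidogens bridge laminin and collagen IV, and perlecan is a large heparan sulfate proteoglycan that binds both networks and growth factors. SPARC is a secreted glycoprotein that binds collagen IV. The trimer made of Col4a1 and Col4a2 chains occurs in nearly every tissue, while trimers with the other chains are known from the kidney glomerulus, smooth muscle and other special sites. The collagen IV genes lie in head-to-head pairs, read from opposite strands with their starts close together.

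The sequences at these pairs are shown as a description, and a link to the training values was not tested. In GRCm39 with GENCODE M39, Col4a1 starts at base 11362826 on the minus strand of chromosome 8 and Col4a2 at base 11362509 on the plus strand. Their transcripts thus overlap on the genome by the 318 bases from start to start. Col4a4 (minus strand, start 82564800) and Col4a3 (plus strand, start 82564697) overlap in the same way by 104 bases on chromosome 1. Col4a6 (minus strand, start 140257072) and Col4a5 (plus strand, start 140258354) stand 1281 bases apart on chromosome X. Each window of 30 bases below is given 5′ to 3′ on the plus strand, with the motif in capitals. The motifs searched on both strands were CCAAT, the GC box GGGCGG and the CT-rich box CCCTCCCC. The first window, with CCAAT and the CT-rich box, and the second, with a GC box, lie between the starts of Col4a1 and Col4a2, at chr8:11362772-11362801 and chr8:11362797-11362826. The third, with a GC box, lies just before Col4a6 at chrX:140257076-140257105, and the fourth, with CCAAT, before Col4a5 at chrX:140258206-140258235.
Col4a1 and Col4a2, CCAAT and CT-rich box: cCCAATttgttggcgctgccCCCTCCCCtc
Col4a1 and Col4a2, GC box: ccctcggcagtgcgcGGGCGGcgtctccaa
Col4a6 side, GC box: tggagggggacgGGGCGGggctgcctgctg
Col4a5 side, CCAAT: ttaagagaagctgCCAATgaacaaacgaga
In the first window CCAAT began 53 bases downstream of the Col4a1 start and 264 bases downstream of the Col4a2 start. All matches between these starts lie downstream of both. The Col4a6 GC box began 16 bases from the Col4a6 start, and the Col4a5 CCAAT 135 bases from the Col4a5 start. The 104 bases between the starts of Col4a3 and Col4a4 held none of these motifs. The windows shown are a selection. Further GC boxes began 45 and 104 bases from the Col4a2 start and, on the minus strand, 69 bases from the Col4a1 start. Another CCAAT, on the minus strand, began 366 bases from the Col4a6 start. Over the window from 250 bases before to 50 bases after each start, CCAAT was found for 5 of the 10 genes, the GC box for 7 and the CT-rich box for 3. In that window Col4a2, Col4a3 and Sparc held none of these motifs, and Col4a5 held a GC box and a CT-rich box besides CCAAT. Of all 21770 protein-coding promoters, 39.9% held CCAAT, 42.5% the GC box and 11.1% the CT-rich box. These matches are descriptions of the letters and not of bound factors.

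The libraries held 29461697 to 39431030 reads counted on genes, and 94.9 to 95.6% of the stranded counts lay on the strand used. The 10 genes had between 152 and 27571 reads in a library. In whole tissue, fewer cells of a type and less RNA per cell cannot be told apart. Markers of several heart cell types also differed between the groups, and these values stand with the results that they touch.

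Col4a1 and Col4a2, the chains of the common trimer, were lower in all training hearts than in any sedentary heart. Col4a1 (ENSMUSG00000031502, chromosome 8, 11248423 to 11362826, 52 exons) stood at 390.1, 464, 494, 396 and 433 CPM (reads relative to a TMM-scaled library size) in training hearts 1 to 5. In sedentary hearts 1 to 5 it stood at 592, 658, 633, 518 and 573 CPM. The highest training heart, number 3, lay below the lowest sedentary heart, number 4. The means were 436 ± 44.3 CPM and 595 ± 54.6 CPM (SD, n = 5 each), a log2 fold change of −0.45 with a standard error of 0.075, or 26.8% less in training.

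Col4a2 (ENSMUSG00000031503, chromosome 8, 11362471 to 11499287, 48 exons) stood at 305, 375, 378, 323 and 331 CPM in training hearts 1 to 5. In the sedentary hearts it stood at 462, 528, 507, 440.2 and 482 CPM. Its groups were separated in the same way, again between training heart 3 and sedentary heart 4. The log2 fold change was −0.50 with a standard error of 0.067. In TPM, the deposited level that also allows for transcript length, training heart 3 was at 67.0 and sedentary heart 4 at 66.3, so that the Col4a2 groups touched on that scale. The Col4a1 groups stayed apart there, with 70.7 to 102 TPM in training and 106 to 128 TPM in sedentary hearts.

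Col4a6, which pairs with Col4a5 in its trimer, was higher in every training heart. This low gene (ENSMUSG00000031273, chromosome X, 139948399 to 140257072, 45 exons) was at 7.22, 6.64, 9.69, 9.18 and 7.63 CPM in training hearts 1 to 5, from 230 to 362 reads. The sedentary hearts were at 6.46, 4.73, 5.54, 4.58 and 5.97 CPM, from 161 to 260 reads. The groups came close, with training heart 2 just above sedentary heart 1. The log2 fold change was 0.56 with a standard error of 0.12. It was 0.28 with a fibroblast marker score and 0.40 with an atrial marker score as a further term, and Col4a6 was not below the FDR of 0.1 in either fit. TPM also left the groups apart, with 1.05 to 1.66 in training and 0.65 to 0.95 in sedentary hearts.

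The other 3 chains showed overlapping groups. Col4a5, the X-linked chain used in trimers with Col4a3 and Col4a4 or with Col4a6, was at 47.1 to 49.3 CPM in training and 41.8 to 50.4 CPM in sedentary hearts, with a log2 fold change of 0.08 and a standard error of 0.049. Its training hearts lay within 1 narrow band, inside the sedentary range. Col4a3 ranged from 5.01 to 6.48 CPM in training and from 5.23 to 6.89 CPM in sedentary hearts (log2 fold change −0.13, standard error 0.098). Col4a4 ranged from 11.5 to 13.2 CPM and from 11.0 to 14.2 CPM in the same order (log2 fold change −0.01, standard error 0.07). The sign of the Col4a4 value turned in 4 of 21 other ways of fitting the counts, library totals alone among them. In TPM the mean of Col4a3 was higher in training, at 0.94 ± 0.16 against 0.84 ± 0.17 (SD, n = 5 each), with overlapping groups. The TPM mean of Col4a4 was also higher in training, at 1.27 ± 0.12 against 1.23 ± 0.19, again with overlap.

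**Figure D1:**
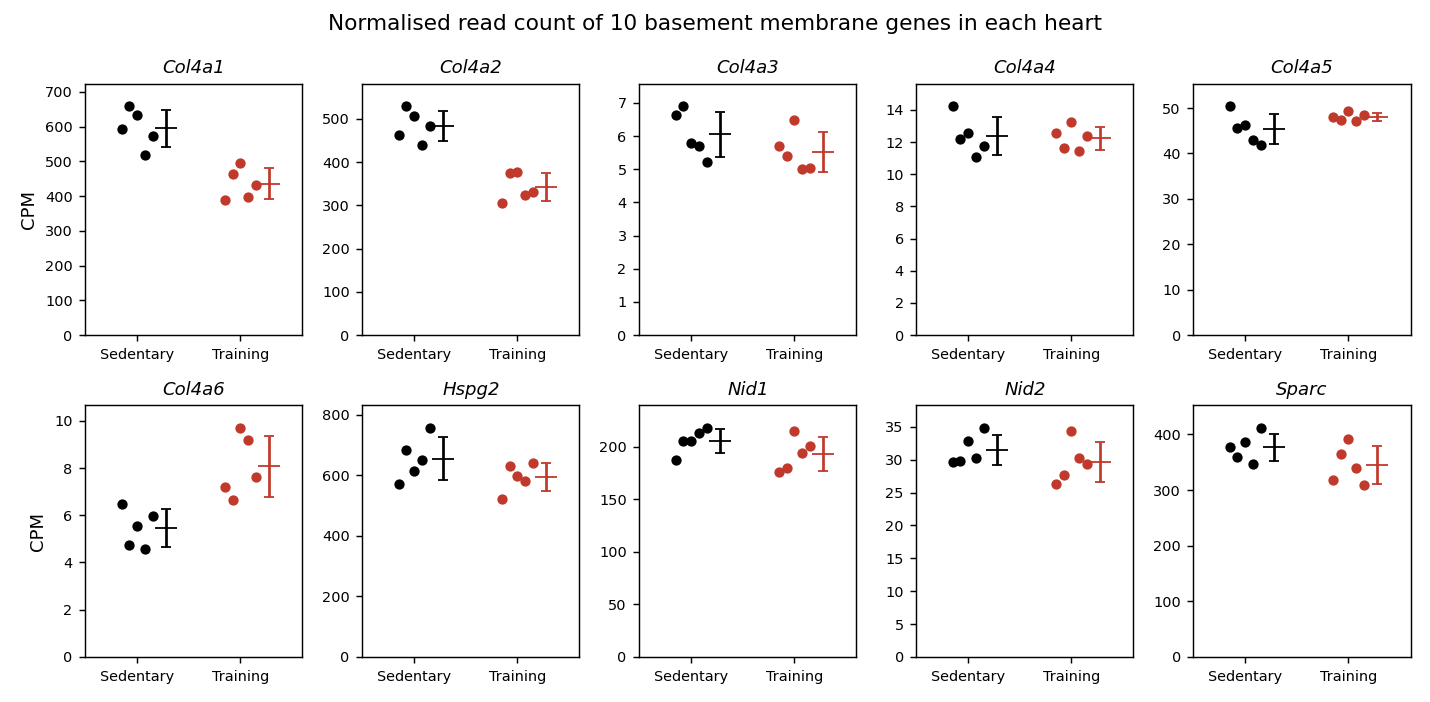
Normalised read count (CPM) of each of the 10 genes in 5 sedentary (black) and 5 training (red) hearts, 1 point per heart, with the mean and SD beside the points and each axis starting at 0. The groups are apart for Col4a1, Col4a2 and Col4a6 and overlap for the other 7 genes.

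The partners of collagen IV overlapped between the groups too. Perlecan (Hspg2, ENSMUSG00000028763, 97 exons) stood at 523, 630, 596, 580 and 641 CPM in training hearts 1 to 5 and at 571, 684, 613, 650 and 755 CPM in sedentary hearts 1 to 5. The log2 fold change was −0.14 with a standard error of 0.074. Training heart 1 was the lowest of all and sedentary heart 5 the highest. In TPM the direction was the other way, with means of 68.2 ± 5.96 in training and 66.7 ± 4.17 in sedentary hearts (SD, n = 5 each).

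Nid1 (ENSMUSG00000005397) was at 176 to 215 CPM in training and 187 to 217 CPM in sedentary hearts, with a log2 fold change of −0.09 and a standard error of 0.058. Its paralog Nid2 (ENSMUSG00000021806) was at 26.4 to 34.4 CPM and 29.7 to 34.8 CPM, with a log2 fold change of −0.09 and a standard error of 0.07. Sparc (ENSMUSG00000018593) was at 309 to 391.6 CPM in training and 347 to 411 CPM in sedentary hearts, with a log2 fold change of −0.13 and a standard error of 0.066. For all 4 partners the CPM fold change was below 0 and smaller in size than that of Col4a1 or Col4a2.

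In all, 3 of the 10 genes were below a false discovery rate (FDR) of 0.1, where 1084 of the 15454 tested genes were (7.01%). Of these, 2 were lower, against 4.26% of all tested genes, and 1 was higher, against 2.75%. The groups did not overlap with training lower for 2 of the 10, against 2.94% of all tested genes, and with training higher for 1, against 2.12%. Nothing is read from these shares, since the genes were chosen with this contrast known. Leaving out any 1 heart left 3 members below that FDR. Calls of members, here and in later fits, rest on that same contrast and are a description, not a test.

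**Figure D2:**
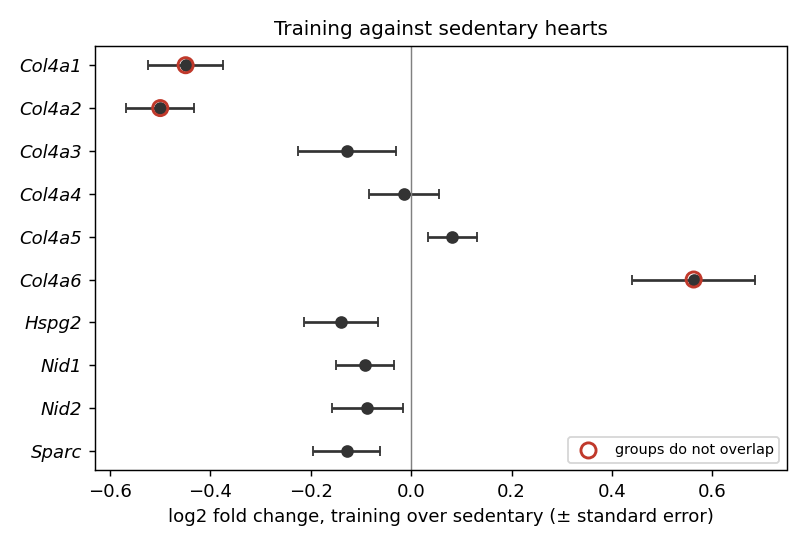
Log2 fold change of training over sedentary hearts for each of the 10 genes, with bars of ± 1 standard error and 5 hearts a group; red rings mark genes whose groups do not overlap. Col4a1 and Col4a2 stand at −0.45 and −0.50, Col4a6 at 0.56, and the other 7 between −0.14 and 0.08.

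The pair was then set against its partners within each heart, as the mean log2 CPM of Col4a1 and Col4a2 minus the mean log2 CPM of Hspg2, Nid1, Nid2 and Sparc. This log2 ratio was 1.05, 1.18, 1.08, 0.96 and 1.03 in training hearts 1 to 5 and 1.49, 1.58, 1.503, 1.29 and 1.25 in sedentary hearts 1 to 5. Every sedentary heart lay above every training heart. On the fold change scale the pair fell by 0.36 more than its partners (log2), and by 0.32 to 0.41 when each heart was left out in turn. The ratio does not depend on the scaling of the libraries, but it rests on the same contrast by which the genes were chosen and has no test.

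The balance of Col4a1 and Col4a2 moved less between the groups than the level of either chain. The ratio of Col4a1 to Col4a2 CPM was 1.27 ± 0.039 in training and 1.23 ± 0.044 in sedentary hearts (SD, n = 5 each), with ranges of 1.23 to 1.31 and 1.18 to 1.28 that overlap. Col4a4 over Col4a3 was 2.23 ± 0.16 and 2.05 ± 0.20 in the same order, and overlapped as well. Col4a6 over Col4a5 was 0.14 to 0.20 in training and 0.10 to 0.14 in sedentary hearts. In that pair the ranges met, with training heart 2 at 0.140 and sedentary heart 5 at 0.143.

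Levels between genes were compared in TPM. In sedentary hearts Sparc was highest at 183 ± 16.2 TPM, followed by Col4a1 at 119 ± 8.79, Col4a2 at 77.0 ± 7.07, Hspg2 at 66.7 ± 4.17 and Nid1 at 36.9 ± 1.27 TPM (SD, n = 5). Col4a5 at 7.43 ± 0.87 and Nid2 at 7.17 ± 0.90 TPM came next, and Col4a4 at 1.23 ± 0.19, Col4a3 at 0.84 ± 0.17 and Col4a6 at 0.79 ± 0.12 TPM were lowest. The neighbours Col4a2 and Hspg2, Col4a5 and Nid2, Col4a4 and Col4a3, and Col4a3 and Col4a6 overlapped in their ranges and did not differ beyond their spread. Most collagen IV RNA in the heart was thus that of the common trimer. Dividing the STAR counts by the same lengths gave the same order.

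In training hearts Sparc at 179 ± 22.2 and Col4a1 at 88.3 ± 12.5 TPM (SD, n = 5) were again the highest. Hspg2 at 68.2 ± 5.96 then stood above Col4a2 at 58.6 ± 7.09 TPM, and Col4a6 at 1.31 ± 0.26 TPM was in the eighth place, where it had been in the tenth. The training ranges of Col4a1 and Hspg2, Hspg2 and Col4a2, and Col4a6 and Col4a4 overlapped, so these neighbours did not differ beyond their spread. Of the summed TPM of the 6 chains, Col4a1 and Col4a2 took 92.5% ± 0.65 in training and 95.0% ± 0.47 in sedentary hearts (SD, n = 5 each). Their share was 91.9 to 93.4% in training and 94.3 to 95.5% in sedentary hearts, without overlap. The share of Col4a6 was 0.83% ± 0.14 and 0.38% ± 0.056 in the same order.

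**Figure D3:**
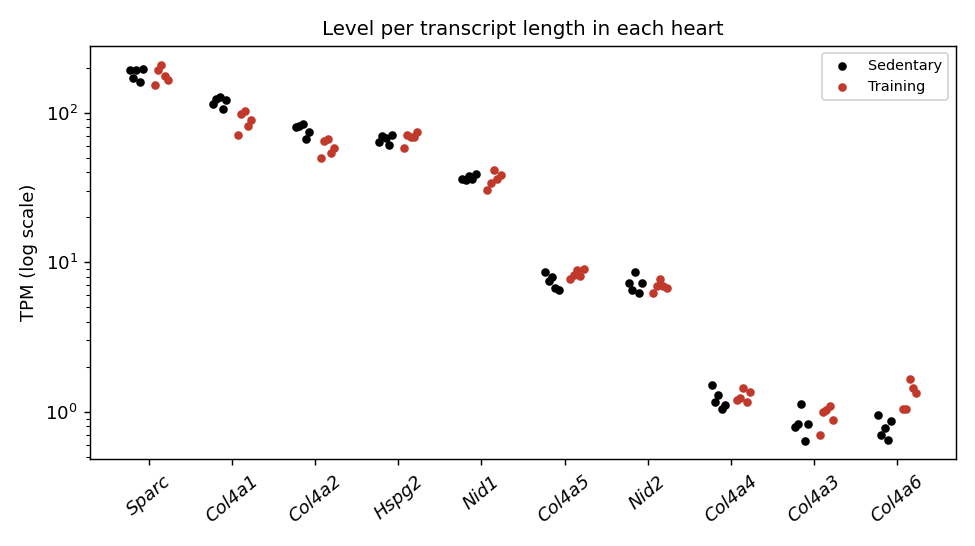
Level per transcript length (TPM, log axis) of the 10 genes, ordered by the sedentary mean, with 1 point per heart, sedentary in black and training in red. Sparc, Col4a1, Col4a2, Hspg2 and Nid1 lie above 30 TPM in every heart, and Col4a3, Col4a4 and Col4a6 below 1.7 TPM.

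Whether the genes vary together from heart to heart was asked after the mean of each group was removed, a measure that the training contrast does not enter. Col4a1 and Col4a2 rose and fell together (Pearson r = 0.94, exact permutation p = 0.000903, adjusted p = 0.0406 over the 45 pairs of genes, n = 10 hearts). Spearman's rho was 0.94 (exact permutation p = 0.000694, adjusted p = 0.0313, n = 10). Within the training hearts r was 0.95 and within the sedentary hearts 0.94, and r was 0.92 without training heart 3 and sedentary heart 4, which lay farthest from the median. Leaving out each heart in turn gave r of 0.92 to 0.96, but the adjusted exact p was between 0.0156 and 0.151 and stayed below 0.05 for 5 of the 10 hearts left out. Among the 8496 genes that averaged 10 CPM or more, Col4a2 had the highest r with Col4a1.

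No other pair passed the adjusted threshold of 0.05. Col4a4 and Col4a5, chains of 1 trimer from different chromosomes, had an r of 0.88 (exact permutation p = 0.0024, adjusted p = 0.0547, n = 10) and a rho of 0.85 (exact permutation p = 0.0051, adjusted p = 0.114), with an r of 0.69 without the 2 farthest hearts. The nidogens Nid1 and Nid2 had an r of 0.84 (exact permutation p = 0.0072, adjusted p = 0.108, n = 10) and a rho of 0.81 (exact permutation p = 0.0141, adjusted p = 0.212), with an r of 0.75 without the 2 farthest hearts. Col4a6 had an r of 0.14 with Col4a1 and 0.039 with Col4a2. With the mean of the pair, the r of the other 8 genes lay between 0.097 for Col4a6 and 0.60 for Sparc.

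**Figure D4:**
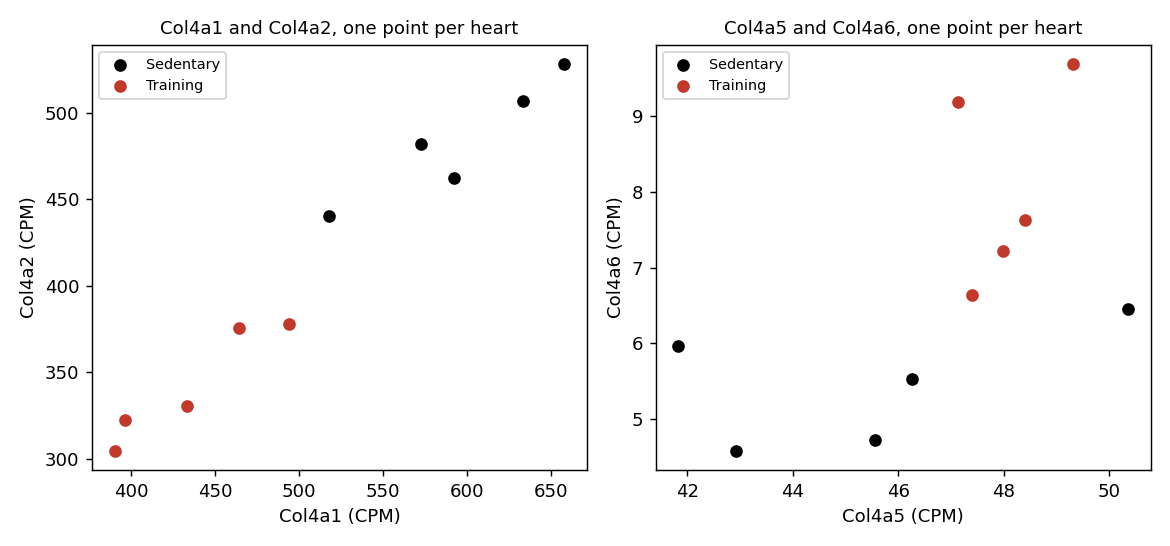
CPM of Col4a2 against Col4a1 (left) and of Col4a6 against Col4a5 (right), 1 point per heart, sedentary in black and training in red, on axes that do not start at 0. Col4a1 and Col4a2 lie along a line in both groups (r = 0.95 in training and 0.94 in sedentary hearts), while Col4a6 differs between the groups at like levels of Col4a5.

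The genes most like the pair outside the set, by the same group-centred r over 10 hearts, were Ltbp2 (0.91), Endod1 (0.91), Rcan1 (0.90), Capza1 (0.90) and Eloa (0.90). Their training log2 fold changes were 0.33, 0.21, −0.40, −0.14 and −0.0016 in that order. These genes were picked as the highest r from the 8496 that averaged 10 CPM or more, with the set left out. How many genes would reach such r by chance was not tested, so nothing is read from the directions of these fold changes. The median r of all genes compared was 0.0091. The genes that flank the pair on chromosome 8 did not pass the FDR of 0.1. Irs2, an adaptor of insulin signaling 188924 bases from Col4a1, had a log2 fold change of 0.23 with a standard error of 0.15 (edgeR's quasi-likelihood test, Benjamini-Hochberg adjusted p = 0.43). Rab20, a small GTPase 4105 bases from Col4a2, had a log2 fold change of −0.006 with a standard error of 0.057 (adjusted p = 0.97 by edgeR).

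The mix of transcripts was read from the isoform-weighted length that RSEM gives each gene. Nid1 had lengths of 5711 to 5812 bases in training and 5486 to 5689 bases in sedentary hearts, and the groups did not overlap. The exact two-sided permutation p of 0.00794 is the smallest that 5 against 5 hearts allow, and the adjusted p over 10 genes was 0.0794. For the other 9 genes the adjusted exact p was at least 0.595. Col4a3 had the widest spread, from 4781 to 7794 bases in training and from 5145 to 8554 in sedentary hearts, at 0.64 to 1.12 TPM.

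The opposite strand was checked since Col4a1 and Col4a2 overlap on opposite strands. Reads on the opposite strand made up 0.038 to 0.584% of the Col4a1 counts and 0.106 to 0.829% of the Col4a2 counts in training hearts. In sedentary hearts the shares were 0.0879 to 0.356% and 0.0581 to 0.397%. For none of the 10 genes did the difference between groups pass the test (adjusted exact permutation p = 0.96 for each, n = 5 a group). Over all genes the share was 4.35 to 5.08%, above that of the 10 genes together in every heart.

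The rest of the pathway was followed in 6 hand-written lists with 86 genes, of which 85 were tested. Of these, 7 were higher, against 2.75% of all tested genes, and 6 lower, against 4.26%. The median log2 fold change was 0.034, against 0.00026 over all tested genes. No laminin chain, the cell-binding network beside collagen IV, was below the FDR of 0.1 in either direction among the 10 tested with edgeR. At an unadjusted p below 0.05, 2 laminin chains were higher and 1 lower, and DESeq2 called 1 lower.

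Adjusted p for genes of these lists come from edgeR's quasi-likelihood test, with the Benjamini-Hochberg method over all tested genes. Among 18 other basement membrane components, 2 were higher and 1 lower. Smoc1, a calcium-binding relative of SPARC, was at 17.5 to 25.03 CPM in training and 12.4 to 17.1 CPM in sedentary hearts, without overlap (log2 fold change 0.48, standard error 0.11, adjusted p = 0.031). Fras1, a protein of the Fraser complex that anchors epithelia, was 0.67 higher on the log2 scale (standard error 0.17, edgeR adjusted p = 0.05). Tinagl1, a matricellular glycoprotein of basement membranes, fell by 0.35 on the log2 scale (standard error 0.10, edgeR adjusted p = 0.081). Leaving out each heart kept Smoc1 below the FDR in 10 of 10 fits, Fras1 in 7 and Tinagl1 in 2. With an atrial or a fibroblast marker score as a further term, the log2 fold change was 0.27 or 0.24 for Smoc1 and 0.22 or 0.31 for Fras1, and edgeR called no gene of this list. At an unadjusted p below 0.05 the list then gave 5 higher and 1 lower with the atrial score, and 3 higher and 0 lower with the fibroblast score.

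Of 23 genes for collagen synthesis and crosslinking, 2 were lower and 2 higher. P4ha2, a catalytic subunit of prolyl 4-hydroxylase, was at 43.0 to 48.2 CPM in training and 50.6 to 53.8 CPM in sedentary hearts, without overlap (log2 fold change −0.20, standard error 0.043, adjusted p = 0.028). Plod1, a lysyl hydroxylase, fell by 0.18 on the log2 scale (standard error 0.049, edgeR adjusted p = 0.057). The prolyl 3-hydroxylase family member P3h3 and Crtap, the cofactor of prolyl 3-hydroxylation, had log2 fold changes of 0.28 and 0.17. P4ha2 stayed below the FDR in 10 of 10 fits without 1 heart, Plod1 in 4, and P3h3 and Crtap in 2 each. The peroxidasin gene Pxdn, whose enzyme forms the sulfilimine crosslink of collagen IV, was at 67.8 to 72.3 CPM and 69.1 to 77.5 CPM and did not pass (log2 fold change −0.07, standard error 0.042, adjusted p = 0.38). With the atrial or the fibroblast score, log2 fold changes were 0.21 or 0.10 for P3h3 and 0.14 or 0.10 for Crtap. They were −0.18 or −0.21 for P4ha2 and −0.11 or −0.10 for Plod1.

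Of 11 receptors, Itga1, the integrin α chain of a collagen IV receptor, was lower (53.1 to 61.3 CPM against 59.5 to 73.4 CPM, log2 fold change −0.25, standard error 0.061, adjusted p = 0.041). Itgb4, the laminin-binding β chain of hemidesmosomes, was higher (log2 fold change 0.36, standard error 0.11). Their calls held in 8 and 2 of 10 fits without 1 heart. Of 9 proteases and inhibitors, Timp4, the metalloproteinase inhibitor most typical of the heart, was lower (47.3 to 69.8 CPM against 68.3 to 87.2 CPM, log2 fold change −0.50, standard error 0.096, adjusted p = 0.019), in 10 of 10 such fits. With the atrial or the fibroblast score, log2 fold changes were −0.25 or −0.24 for Itga1 and 0.19 or 0.21 for Itgb4. For Timp4 they were −0.40 or −0.35.

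Of 14 interstitial collagens, Col5a3 was lower, at 20.8 to 23.7 CPM in training and 25.6 to 39.4 CPM in sedentary hearts (log2 fold change −0.48, standard error 0.094, adjusted p = 0.021), in 10 of 10 fits without 1 heart. Col8a2, a short-chain collagen, and Col14a1, a fibril-associated collagen, were higher, with log2 fold changes of 0.52 and 0.42, in 4 and 5 of 10 such fits. The fibrillar collagen genes Col1a1 and Col3a1 had log2 fold changes of 0.09 and −0.0031 and did not pass. With the atrial or the fibroblast score as a further term, the log2 fold change of Col14a1 was 0.19 or 0.10. It was 0.61 or 0.50 for Col8a2 and −0.30 or −0.45 for Col5a3.

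**Figure D5:**
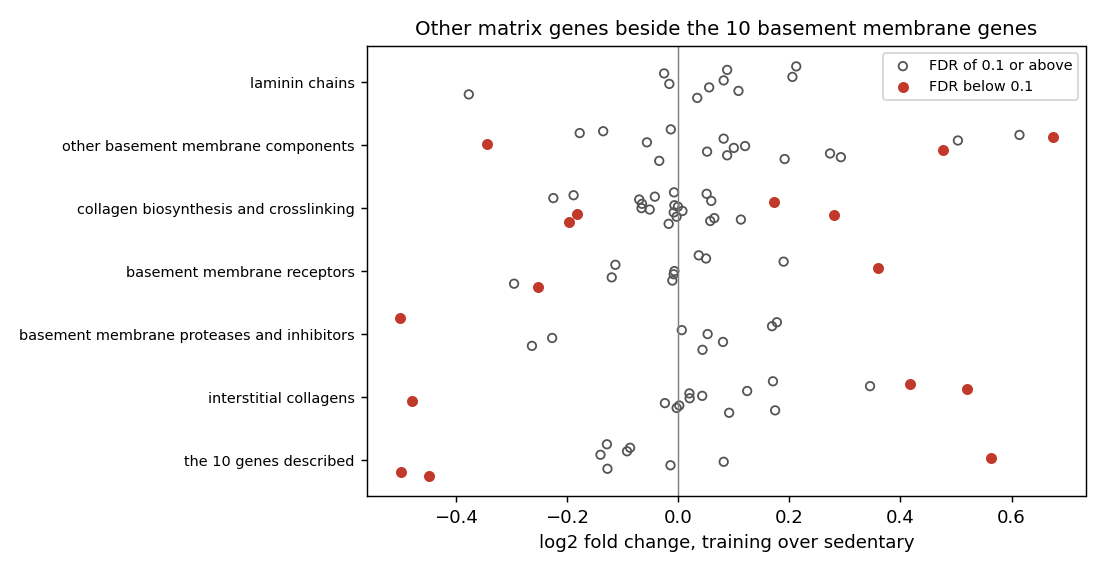
Log2 fold change of training over sedentary hearts for the 85 tested genes of 6 matrix lists and, in the lowest row, for the 10 genes described here; filled red points are below an FDR of 0.1. No laminin chain is filled, and 7 list genes are filled to the right of 0 and 6 to the left.

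Cell markers moved between the groups beside these genes, and their counts are set against the 2.75% of all tested genes that were higher and the 4.26% that were lower. Of 6 atrial markers 2 were higher in training hearts (Sln and Dkk3), and all 6 had log2 fold changes above 0 (median 0.62). The summed level of the 6 was 5053 to 7617 CPM in training and 2789 to 6837 CPM in sedentary hearts. Of 8 fibroblast markers 3 were higher (Pdgfra, Lum and Gsn), with sums of 2585 to 3443 and 2403 to 2724 CPM. Log2 fold changes were above 0 for 7 fibroblast markers and below 0 for 1 (median 0.22). Of 12 endothelial markers 3 were lower (Flt1, Tie1 and Esam), with sums of 1383 to 1565 and 1515 to 1575 CPM. Log2 fold changes were above 0 for 5 endothelial markers and below 0 for 7 (median −0.063). No marker of any list was at 0 in all hearts. With the atrial or the fibroblast score as a further term, edgeR called 0 of the 73 markers higher or lower. At an unadjusted p below 0.05 it gave 6 higher and 10 lower with the atrial score, and 6 higher and 13 lower with the fibroblast score. Each score is the mean of the atrial or the fibroblast markers themselves, and calls over all genes fell from 1084 to 94 and 51. These counts therefore cannot show whether the marker differences were accounted for.

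Mural cell markers had 1 lower (Rgs5) and 1 higher (Tagln) of 10, with sums of 1309 to 1480 CPM in training and 1331 to 1534 CPM in sedentary hearts. Of 10 cardiomyocyte markers 1 was lower with edgeR (Actc1) and 4 with DESeq2. The fold changes of all 10 were negative on the log2 scale (median −0.11), with sums of 66389 to 70802 CPM in training and 69982 to 80083 CPM in sedentary hearts. The edgeR fit called no marker of macrophages, epicardium, adipocytes, Schwann cells or erythroid cells. At an unadjusted p below 0.05 these lists gave 2 Schwann cell genes higher and 1 erythroid gene lower, and DESeq2 called none of them either.

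The collagen IV values were refitted with a score of marker genes as a further term of the model, an alternative added once the data had been seen. With the atrial score the log2 fold changes were −0.41 for Col4a1, −0.43 for Col4a2 and 0.40 for Col4a6, and 1 of the 10 members, Col4a2, stayed below the FDR of 0.1. With the endothelial score they were −0.36, −0.43 and 0.66, and 3 members stayed below it. With the fibroblast score they were −0.51, −0.52 and 0.28, and 2 members, Col4a1 and Col4a2, stayed below it. All genes called fell from 1084 to 94 with the atrial score and to 51 with the fibroblast score.

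Within groups, none of 9 relations between a marker score and Col4a1, Col4a2 or Col4a6 passed an adjusted exact p of 0.05. The strongest were Col4a6 with the fibroblast score (r = 0.78, exact permutation p = 0.0149, adjusted p = 0.134, n = 10) and Col4a1 with the endothelial score (r = 0.69, exact permutation p = 0.0413, adjusted p = 0.186, n = 10). Spearman's rho was 0.75 for both, with exact permutation p of 0.0267 and 0.0278 and an adjusted p of 0.125 for each. Without the 2 hearts farthest from the median of the score, r was 0.54 and 0.46. The part of these cell types in the differences between groups was not tested beyond these values.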

How the data were processed

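Whole hearts of 5 training and 5 sedentary mice were sequenced as strand-specific, poly-A-selected libraries. Per the labels and the paper's methods, the authors aligned reads to GRCm39 with STAR 2.7.10a. The authors deposited its unnormalized counts, 1 value per gene and strand setting for reads with a unique position, and the reverse-strand column was used. With RSEM 1.3.3 the authors made the deposited expected counts, TPM and FPKM, of which FPKM values were not used. The strand setting of RSEM is not given in the sources used here. Multimapped reads, 17.9 to 19.2% of reads in a library, are left out of the STAR counts.

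Ensembl identifiers were matched to symbols by GENCODE M39 (56017 of 56748 matched), which may differ from the authors' annotation. Genes passing filterByExpr entered edgeR 4.0.16 under R 4.3.3 (TMM, quasi-likelihood test, Benjamini-Hochberg, FDR below 0.1). Each standard error is the size of the log2 fold change divided by the square root of that test's F statistic. It was not estimated apart from the test. P-values measure the spread between these hearts, each from a separate mouse. Logarithms of CPM used a prior count of 2. Correlations were taken after group means were removed and tested by all 14400 pairings within groups, and lengths and strand shares by all 252 assignments of hearts, in Python 3.11.15 with scipy 1.17.1. Both fits and correlations were checked on simulated data.

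The members and the lists were chosen with earlier results of these data known. Named were all members, list genes and cell markers below the FDR, the 5 genes most like the pair among those averaging 10 CPM or more, and the flanking genes. Pxdn, Col1a1 and Col3a1 were named after their values were seen. Promoters and motifs were read from GRCm39 at GENCODE M39 starts.

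Alternatives were DESeq2 1.42.0, DESeq2 size factors, scaling by library totals alone, counts of both strands, RSEM expected counts rounded to whole numbers, a minimum of 10 counts per library or no filter, no mitochondrial DNA genes, length and GC trends removed by loess, a replicate block, an FDR below 0.05, a prior count of 0.5, and each heart left out. Scores of atrial, endothelial or fibroblast markers as further terms were added after the data were seen.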

Additional observations from a re-analysis of the deposited data

Results flagged for a closer look

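The share of opposite-strand reads over the 10 genes was 0.341% in sedentary heart 3, while the other 4 sedentary hearts were between 0.0679 and 0.0907%, so that this heart stood apart from its group. Such a check marks about 1 in 20 groups by chance, and 26 groups were checked. In that heart the share over all genes was 4.62%, the highest of its group, while the other 4 sedentary hearts were between 4.35 and 4.57%. Training heart 1 had the highest share of all, at 0.566%.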

How the results depend on the processing

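All 10 members kept the sign of their log2 fold change in 21 alternatives without marker scores, except Col4a4 in 4. TPM was not among these alternatives, and its means lay the other way for Col4a3, Col4a4 and Hspg2. Over the 21 alternatives the log2 fold changes ranged from −0.50 to −0.40 for Col4a1, −0.54 to −0.45 for Col4a2 and 0.49 to 0.63 for Col4a6. With the fibroblast score Col4a4 was −0.16, Col4a5 −0.00091, Col4a6 0.28 and Hspg2 −0.0032, and with the atrial score Hspg2 was 0.018 and 1 member, Col4a2, stayed below the FDR. The list genes below the FDR, 7 higher and 6 lower, moved most. Library totals alone gave 14 higher and 3 lower, the endothelial score 14 higher, an FDR below 0.05 gave 2 higher, the atrial score 0 higher and 1 lower, and the fibroblast score 0 and 0. At an unadjusted p below 0.05 the atrial score still gave 8 higher and 8 lower list genes and the fibroblast score 9 and 9, with edgeR. DESeq2 was not run with scores. Without each heart in turn, 1 to 9 list genes were higher and 3 to 7 lower, with 1 higher without training heart 3, 2 without training heart 4 or sedentary hearts 2, 3 or 4, and 3 without training heart 5. The 3 lower were without sedentary heart 3. The causes were not tested. The correlation of Col4a1 with Col4a2 ranged from 0.92 to 0.96 without each heart, with the adjusted exact p above 0.05 without training hearts 1 or 5 or sedentary hearts 2, 3 or 4.

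All genes below the FDR numbered 1084, and 512 to 1490 without each heart, 1137 with the replicate block, 1368 with library totals and 505 at an FDR below 0.05. Mouse numbers were not used as pairs, as deviations of hearts with the same number correlated by −0.097 to 0.16 and only 1 of 5 numbers matched best with itself. With the replicate block 3 members stayed below the FDR, and 6 list genes were higher and 6 lower. Depth limits Col4a3 and Col4a6 most, with 152 to 362 reads in a library.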
